A study of Mus musculus with 27 samples.

Results

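A set of 10 genes that mark intestinal tuft cells and carry their taste-like signalling was followed across TCDD dose in the mouse colon. They are Trpm5, Gnat3, Gnb3, Gng13, Plcb2, Dclk1, Pou2f3, Gfi1b, Avil and Sucnr1, 10 of the 46078 gene rows of the count tables, found by matching each Ensembl identifier to its symbol. The set was chosen by measured values of these mice, since tuft cell genes as a group were known to be lower than vehicle at 3, 10 and 30 μg/kg. Differences from vehicle at those 3 doses, and between them, are therefore given below as a description, without a p-value, and whether a gene passed the threshold of a call there is a description too. The same holds for further tuft cell genes at those doses. Epithelium was scraped from the colons of 27 male C57BL/6 mice, 3 per group, for which the labels name no engineered allele. The mice were gavaged every 4 days, 7 times in all, starting at 28 days of age, and tissue was taken at 56 days of age. They received sesame oil as vehicle or TCDD, a persistent dioxin and ligand of the aryl hydrocarbon receptor (AhR), at 1 of 8 doses: low doses of 0.01 μg/kg, 0.03 μg/kg, 0.1 μg/kg, 0.3 μg/kg and 1 μg/kg, and higher doses of 3 μg/kg, 10 μg/kg and 30 μg/kg. A scraping holds cells from under the epithelium as well, and a bulk library cannot tell fewer tuft cells from less RNA per tuft cell.

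Tuft cells are rare chemosensory cells of the gut epithelium. In the canonical cascade a receptor at the cell's tip activates the G protein gustducin, whose alpha, beta and gamma subunits are encoded by Gnat3, Gnb3 and Gng13. Phospholipase C beta 2 (Plcb2) then makes inositol trisphosphate, calcium leaves its stores, and the calcium-gated cation channel TRPM5 depolarises the cell. Sucnr1 encodes a receptor for succinate, a microbial metabolite that tuft cells of the small intestine sense. Pou2f3 encodes the transcription factor that tuft cells need to form, Gfi1b another transcription factor of tuft cells and of blood lineages. Avil encodes an actin-binding protein of the villin family, and Dclk1 a kinase of the doublecortin family that is the most used tuft cell marker in the mouse.

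Libraries held between 9305441 and 14371035 reads counted in genes (median 11651026). Each library carries an index barcode, and some barcodes occur in more than 1 library. Libraries were taken in order of mouse number, which rises with dose. The first library with a given barcode was put in a first index set (16 mice), and a repeat of it in a second (11 mice). Whether these sets match separate sequencing runs was not tested. All mice from vehicle through 0.3 μg/kg were in the first set and all mice from 3 μg/kg up in the second, while the group at 1 μg/kg had 1 mouse in the first and 2 in the second. The index set and the higher doses therefore cannot be told apart except through the mice at 1 μg/kg. Levels are given in CPM, counts per 1000000 counts in the library after TMM scaling. Of the 10 genes, 6 passed the filter on low counts and were tested (Trpm5, Dclk1, Avil, Plcb2, Pou2f3 and Gnat3). The other 4 were too sparse to test. A gene was called when edgeR's quasi-likelihood test gave an adjusted p under 0.05 and the fold change was at least 1.5.

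The tested genes lay in the lower to middle range of the colon transcriptome. In CPM averaged over all mice, which favours long genes, Dclk1 was above 67.2% of the 16496 genes tested, Trpm5 above 54.6%, Avil above 42.1%, Plcb2 above 32.6%, Pou2f3 above 22.9% and Gnat3 above 20.3%. Per kilobase of exon, the level in vehicle was 3.29 ± 0.298 CPM for Trpm5, 3.15 ± 0.240 for Avil, 2.58 ± 0.282 for Dclk1, 2.40 ± 0.566 for Gnat3, 0.839 ± 0.134 for Pou2f3 and 0.807 ± 0.0501 for Plcb2 (SD, n = 3). On this scale Trpm5 and Avil differed by less than their SD, as did Dclk1 and Gnat3, and Pou2f3 and Plcb2. The gustducin alpha subunit Gnat3 was thus near Dclk1 in level per length, while its beta and gamma partners had very few reads (0 CPM per kilobase for Gnb3 and 0.0848 ± 0.0734 for Gng13). Length is that of all annotated exons together (15296 bases for Dclk1, 1361 for Gnat3), so the nearness depends on it. Of the 773 exonic bases of Gng13, 399 are shared with Chtf18 on the opposite strand, which can lower its count if strand was not used.

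The starts of these genes are shown so that the set can be read by sequence as well as by level. RefSeq promoter entries on GRCm38.p6 were found for 8 of the 10 genes, none for Gnb3 and Pou2f3, and 2 each for Gng13 and Dclk1, which makes 10 entries. The 250 bases before each start were searched on both strands for GCGTG, the core of the AhR response element, for ATGCAAAT, the octamer bound by POU factors such as POU2F3, and for ATGCAAA, the first 7 letters of that octamer, which every octamer also holds. The core was present in 1 of the 10 entries, against 28.2% of all 32851 promoters in the same window. The octamer was present in 1 of the 10, against 1.60% of all promoters, and its first 7 letters in 2 of the 10, against 4.12%. The 5 windows below are those of Trpm5, the channel of the cascade, Plcb2, its phospholipase, and the entries that held a match, with matches on either strand in capitals and each sequence written 5′ to 3′ on the strand of its gene.
Trpm5 (chr7:143094643-143094892, minus strand): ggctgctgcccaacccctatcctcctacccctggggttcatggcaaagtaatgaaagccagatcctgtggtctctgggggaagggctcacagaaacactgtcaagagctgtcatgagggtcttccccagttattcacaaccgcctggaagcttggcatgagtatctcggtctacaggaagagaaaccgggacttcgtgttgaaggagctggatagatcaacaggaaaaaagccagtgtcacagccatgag
Plcb2 (chr2:118728439-118728688, minus strand): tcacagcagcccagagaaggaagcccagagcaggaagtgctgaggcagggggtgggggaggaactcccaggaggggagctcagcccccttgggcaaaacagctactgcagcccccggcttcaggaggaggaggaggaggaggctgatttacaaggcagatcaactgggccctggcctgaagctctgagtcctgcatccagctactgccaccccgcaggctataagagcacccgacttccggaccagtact
Dclk1 (chr3:55242114-55242363, plus strand): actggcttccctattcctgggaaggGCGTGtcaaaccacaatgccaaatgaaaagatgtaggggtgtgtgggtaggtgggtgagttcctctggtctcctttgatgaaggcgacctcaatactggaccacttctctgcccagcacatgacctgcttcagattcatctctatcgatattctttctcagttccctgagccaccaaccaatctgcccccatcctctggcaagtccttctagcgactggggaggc
Avil (chr10:127000459-127000708, plus strand): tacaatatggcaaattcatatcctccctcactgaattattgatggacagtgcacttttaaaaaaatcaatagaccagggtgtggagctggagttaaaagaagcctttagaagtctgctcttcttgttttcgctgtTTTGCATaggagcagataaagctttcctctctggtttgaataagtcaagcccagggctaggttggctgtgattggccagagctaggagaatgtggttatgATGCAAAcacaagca
Sucnr1 (chr3:60081619-60081868, plus strand): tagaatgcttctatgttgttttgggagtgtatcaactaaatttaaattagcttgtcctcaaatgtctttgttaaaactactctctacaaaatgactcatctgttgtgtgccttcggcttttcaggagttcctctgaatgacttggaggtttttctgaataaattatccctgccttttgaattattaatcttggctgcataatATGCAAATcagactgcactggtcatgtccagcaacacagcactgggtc
The windows of Trpm5 and Plcb2 held none of the 3 motifs. Avil held the 7 letters 2 times, with the matches beginning 115 and 15 bases before its start, and Sucnr1 the whole octamer from 48 bases before its start. The single AhR core lay in the window of the upstream Dclk1 start, 225 bases before it. The other Dclk1 start, 219364 bases downstream, held no match, nor did those of Gnat3, Gfi1b and Gng13. A match of letters is a description of the sequence, and its use in these cells was not tested.

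Trpm5 (ENSMUSG00000009246, chromosome 7 from 143069153 to 143094642, minus strand, GRCm38, GENCODE M21) showed a level that held up to 1 μg/kg and was lower above it. Vehicle-treated mice had 22.7, 19 and 21.4 CPM. The mice dosed at 3 μg/kg had 17.2, 13.4 and 16.3 CPM, those at 10 μg/kg 8.96, 9.50 and 9.10 CPM, and those at 30 μg/kg 8.85, 5.60 and 5.69 CPM. All 3 mice at each of these doses were below every vehicle-treated mouse, and the mice at 3 and 10 μg/kg did not overlap each other. Against vehicle the log2 fold change was -0.43 ± 0.17, -1.19 ± 0.17 and -1.64 ± 0.18 (± SE) at the 3 doses in rising order, the last being 3.11-fold lower. The 15 mice at 0.01 to 1 μg/kg ran from 15.1 to 32.0 CPM, median 20.2, with the highest value in 1 mouse at 1 μg/kg (32.0 CPM). Tssc4 shares 220 exonic bases with Trpm5 on the opposite strand, and whether the counting used strand is not given in the sources used here.

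Plcb2 (ENSMUSG00000040061, chromosome 2 from 118707517 to 118728438, minus strand) was clearly apart from the low-dose mice at 30 μg/kg only. Vehicle-treated mice had 5.21, 5.06 and 5.69 CPM. Mice at 3 μg/kg had 4.6, 4.46 and 3.64 CPM, those at 10 μg/kg 4.27, 2.65 and 3.43 CPM and those at 30 μg/kg 2.30, 1.42 and 1.72 CPM. Only at 30 μg/kg were all 3 mice below all 15 mice at 0.01 to 1 μg/kg, which ran from 3.76 to 7.33 CPM. The log2 fold change was -0.33 ± 0.21, -0.62 ± 0.21 and -1.54 ± 0.23 at 3, 10 and 30 μg/kg, and was called at 30 μg/kg alone.

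Gnat3 (ENSMUSG00000028777, chromosome 5 from 17962549 to 18019834, plus strand) had the deepest difference of the 6 and the fewest counts behind it. Vehicle-treated mice had 3.94, 2.42 and 3.44 CPM, or 40, 23 and 35 reads. At 30 μg/kg the mice had 1.08, 0.0836 and 0.259 CPM, or 15, 1 and 3 reads, so that 2 of the 3 mice were nearly without it. Its log2 fold change there was -2.69 ± 0.46. The estimate was -4.18 without mouse 65, the mouse with 15 reads. Gnat3 was also low in the low-dose groups, where 13 of the 15 mice at 0.01 to 1 μg/kg (0.880 to 2.56 CPM, median 1.98) were below every vehicle-treated mouse and 0 were above. The same tally was 8 below and 3 above for Avil, 7 below and 6 above for Plcb2, 5 below and 2 above for Trpm5, 4 below and 1 above for Pou2f3, and 3 below and 1 above for Dclk1. The mice at 3 μg/kg (1.46 to 1.65 CPM) and 10 μg/kg (1.28 to 1.64 CPM) lay inside that low-dose range, and 2 of 3 mice at 30 μg/kg lay below it. The dose at which Gnat3 departs thus depends on whether vehicle or the low-dose mice are the reference.

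The other gustducin subunits gave no reading. Gnb3 (ENSMUSG00000023439, chromosome 6 from 124834240 to 124840275) had 0 to 2 reads per mouse and 7 reads in all 27 libraries. Gng13 (ENSMUSG00000025739, chromosome 17 from 25717171 to 25719406) had 0 to 5 reads per mouse and 28 reads in all, and 399 of its 773 exonic bases are shared with Chtf18 on the opposite strand. The succinate receptor gene Sucnr1 (ENSMUSG00000027762, chromosome 3 from 60081869 to 60087566) had 0 to 7 reads per mouse, with 5 reads summed over the vehicle group and 8 reads over the group at 30 μg/kg. At these counts no difference between doses was detectable in the 3 genes.

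**Figure D1:**
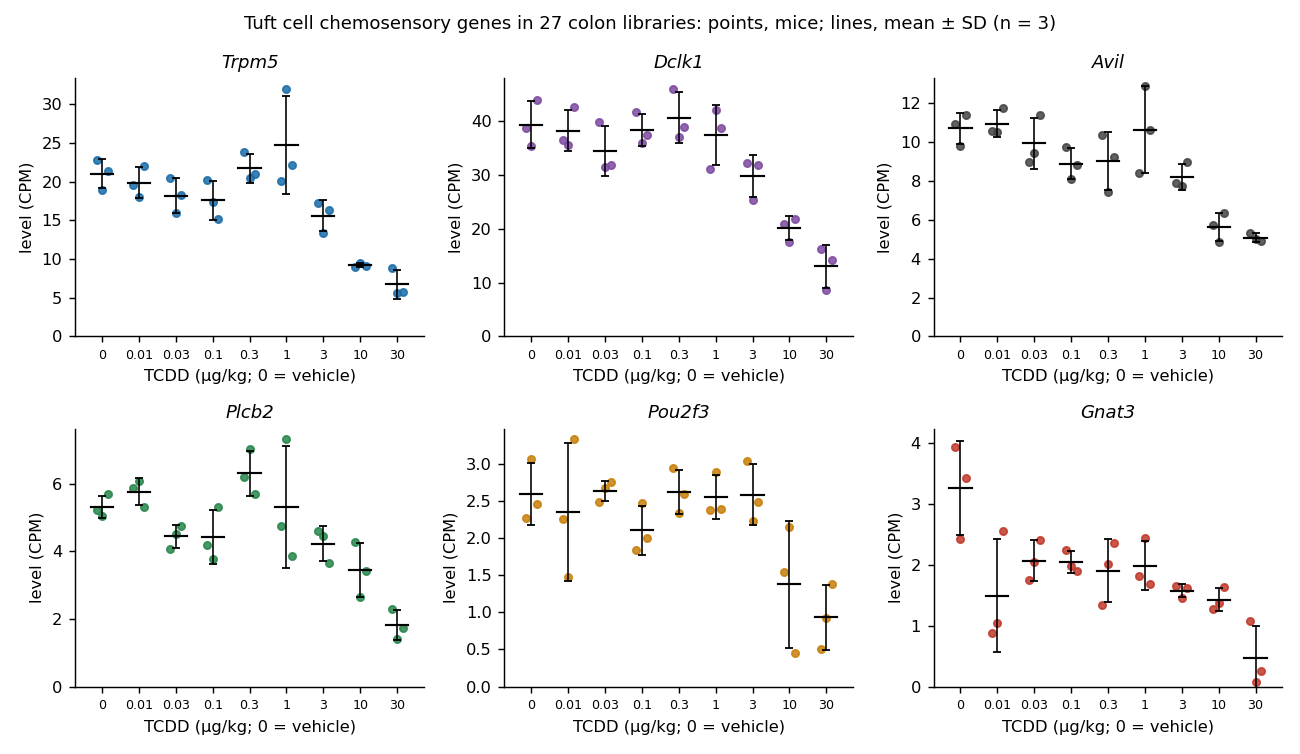
Level of the 6 tested genes (CPM, y axis from 0) against TCDD dose (μg/kg, 0 is vehicle, evenly spaced categories). Points are single mice, and lines with bars are the mean and SD of 3 mice. Up to 1 μg/kg 5 of the 6 genes stay near their vehicle level, Gnat3 is highest in vehicle, and all 6 means are lowest at 30 μg/kg.

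The 2 transcription factors of the set differed in depth of counting. Pou2f3 (ENSMUSG00000032015, chromosome 9 from 43123939 to 43210369, minus strand) was measured at 2.26, 3.06 and 2.45 CPM in vehicle-treated mice and at 3.03, 2.23 and 2.48 CPM at 3 μg/kg, so that the 2 groups overlapped almost fully. At 10 μg/kg the mice had 1.54, 2.14 and 0.447 CPM, and at 30 μg/kg 0.503, 0.920 and 1.38 CPM. The values at 10 μg/kg spread widely and those at 30 μg/kg were all below the 15 low-dose mice (1.48 to 3.32 CPM). The log2 fold change was -0.01 ± 0.34, -0.93 ± 0.37 and -1.48 ± 0.38 at 3, 10 and 30 μg/kg. Gfi1b (ENSMUSG00000026815, chromosome 2 from 28609450 to 28621982) had 1 to 10 reads per mouse, 18 reads summed over the vehicle group and 9 reads over the group at 30 μg/kg, and was not tested. Vehicle-treated mice had 0.984, 0.422 and 0.393 CPM of it and mice at 30 μg/kg 0.144, 0.251 and 0.345 CPM. All 3 mice at 30 μg/kg were thus below every vehicle-treated mouse, by 2, 3 and 4 reads against 10, 4 and 4, while the lowest low-dose mouse had 0.190 CPM.

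Dclk1 (ENSMUSG00000027797, chromosome 3 from 55242364 to 55539068, plus strand) was the most counted of the set. Vehicle-treated mice had 38.8, 35.4 and 44 CPM. Mice at 3 μg/kg had 32.2, 25.3 and 31.9 CPM, those at 10 μg/kg 20.8, 17.6 and 21.9 CPM and those at 30 μg/kg 16.3, 8.61 and 14.1 CPM. Vehicle, 3, 10 and 30 μg/kg formed 4 ranges without overlap. The log2 fold change was -0.40 ± 0.16, -0.97 ± 0.17 and -1.59 ± 0.17, or 3.02-fold lower at 30 μg/kg. The predicted genes that overlap Dclk1 had 24 reads or fewer per mouse. Dclk1 is also known from neurons.

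Avil (ENSMUSG00000025432, chromosome 10 from 127000709 to 127020994, plus strand) had nearly the same level at 10 and 30 μg/kg. Vehicle-treated mice had 10.9, 9.80 and 11.4 CPM. Mice at 3 μg/kg had 7.91, 7.72 and 9 CPM, those at 10 μg/kg 5.72, 4.88 and 6.34 CPM and those at 30 μg/kg 5.32, 5.02 and 4.91 CPM. The groups at 10 and 30 μg/kg overlapped, and both were below every other mouse. The log2 fold change was -0.38 ± 0.15, -0.92 ± 0.16 and -1.07 ± 0.16, the smallest of the 6 genes at 30 μg/kg (2.10-fold lower). Avil shares 165 exonic bases with Tsfm on the opposite strand.

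Across the set, 0 of the 6 tested genes were called lower than vehicle at 3 μg/kg, where 0.394% of all genes tested were called lower. At 10 μg/kg 3 of the 6 (Trpm5, Dclk1 and Avil) were called lower, beside 0.97% of all genes, and at 30 μg/kg all 6 tested genes, beside 3.21%. The choice of the set used these comparisons, so nothing is read from the counts. The median log2 fold change over the 6 genes was -0.39, -0.95 and -1.57 at 3, 10 and 30 μg/kg, against medians over all genes tested of -0.003, -0.01 and -0.002. The summed level of the 6 genes was 82.3 CPM ± 6.93 in vehicle (SD, n = 3), and 62 ± 6.53, 41.2 ± 2.66 and 28 ± 6.32 CPM in the groups given 3, 10 and 30 μg/kg. In the 5 low-dose groups the mean sum lay between 71.7 and 82.6 CPM, and the range of each overlapped that of vehicle. Pou2f3 lost its call at 30 μg/kg in 4 alternatives, namely without vehicle mouse 3, without mouse 65, with the index set added to the model and when only the 2 groups compared were fitted.

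**Figure D2:**
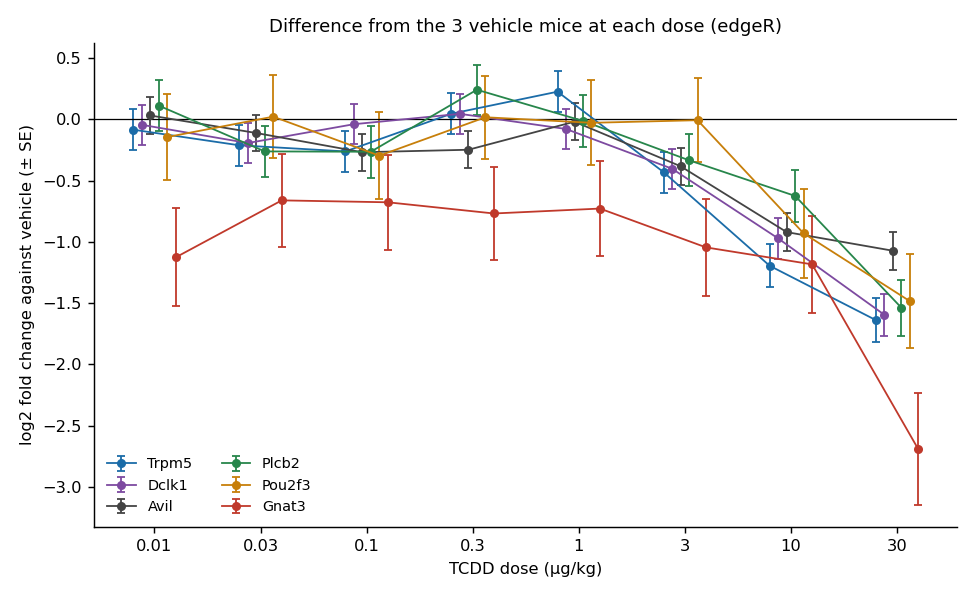
Log2 fold change against the 3 vehicle-treated mice (y axis) at each TCDD dose (x axis, evenly spaced categories, genes set slightly apart). Points are edgeR estimates and bars their SE. All 6 genes lie below 0 at 10 and 30 μg/kg, Pou2f3 is still at 0 at 3 μg/kg, and Gnat3 lies below 0 from 0.01 μg/kg on.

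The doses from 0.01 to 1 μg/kg were not used in choosing the set, although their comparison with vehicle shares the vehicle-treated mice. Against vehicle, 0 of the 6 genes were called at any of these 5 doses. Of all genes tested, 0% were called at each of the doses from 0.01 to 0.3 μg/kg and 0.2% at 1 μg/kg. At an unadjusted p under 0.05 only Gnat3 at 0.01 μg/kg passed (log2 fold change -1.13 ± 0.40, adjusted p = 0.781), beside 1047 of all genes at that dose and 766 to 1616 at the other 4, and DESeq2 and limma voom called 0 of the 6 as well. The comparisons without the vehicle-treated mice hold no value that chose the set. The slope over dose rank from 0.01 to 1 μg/kg, fitted to 15 mice, was called for 0 of the 6 genes and for 0.0126% of all genes. The smallest p of the 6 was that of Trpm5, with 0.09 ± 0.04 log2 units per dose step (unadjusted p = 0.0336, adjusted p = 0.359), the only 1 of the 6 under 0.05 unadjusted, beside 1893 of all 15839 genes in this fit. The slope from 0.01 to 0.3 μg/kg, fitted to 12 mice of the first index set, was called for 0 of the 6 genes and 0% of all genes, and Avil came nearest with -0.10 ± 0.05 per step (unadjusted p = 0.0556, adjusted p = 0.999). Trpm5 had 0.04 ± 0.05 per step in this fit (unadjusted p = 0.377, adjusted p = 0.999). At 1 against 0.3 μg/kg 0 of the 6 genes and 0.00606% of all genes were called, with log2 differences between -0.25 and 0.23 and 0 of the 6 at an unadjusted p under 0.05. Because 2 of the 3 mice at 1 μg/kg are in the second index set, this comparison and the slope up to 1 μg/kg also hold a difference of index set. No fall across the doses from 0.01 to 1 μg/kg was therefore detectable in comparisons that leave the vehicle-treated mice out. Such comparisons cannot show a difference from vehicle that is already present at 0.01 μg/kg.

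Within the second index set, where 3, 10 and 30 μg/kg can be compared with each other, the sizes of the steps varied from gene to gene, and these differences between genes were not tested. From 3 to 10 μg/kg the log2 difference was -0.92 ± 0.36 for Pou2f3, -0.76 ± 0.17 for Trpm5, -0.57 ± 0.17 for Dclk1, -0.54 ± 0.16 for Avil, -0.29 ± 0.22 for Plcb2 and -0.14 ± 0.42 for Gnat3. From 10 to 30 μg/kg it was -1.51 ± 0.48 for Gnat3, -0.91 ± 0.23 for Plcb2, -0.62 ± 0.17 for Dclk1, -0.55 ± 0.40 for Pou2f3, -0.44 ± 0.18 for Trpm5 and -0.15 ± 0.16 for Avil. Trpm5, Avil and Pou2f3 thus had the larger estimate for the first step, Gnat3 and Plcb2 for the last step, and Dclk1 nearly equal estimates. Within single mice the log2 ratio of Avil to Trpm5 was -0.96 ± 0.08 in vehicle and -0.36 ± 0.31 at 30 μg/kg (SD, n = 3), and these groups did not overlap, although the mice at 0.03 μg/kg (-1.17 to -0.67) reached into the range at 30 μg/kg (-0.71 to -0.15). The ratio of Dclk1 to Trpm5 was 0.90 ± 0.13 in vehicle and 0.92 ± 0.34 at 30 μg/kg, with group means between 0.61 (1 μg/kg) and 1.13 (0.1 μg/kg) and no order by dose. These doses belong to the rule that chose the set, so the steps are given without a test.

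**Figure D3:**
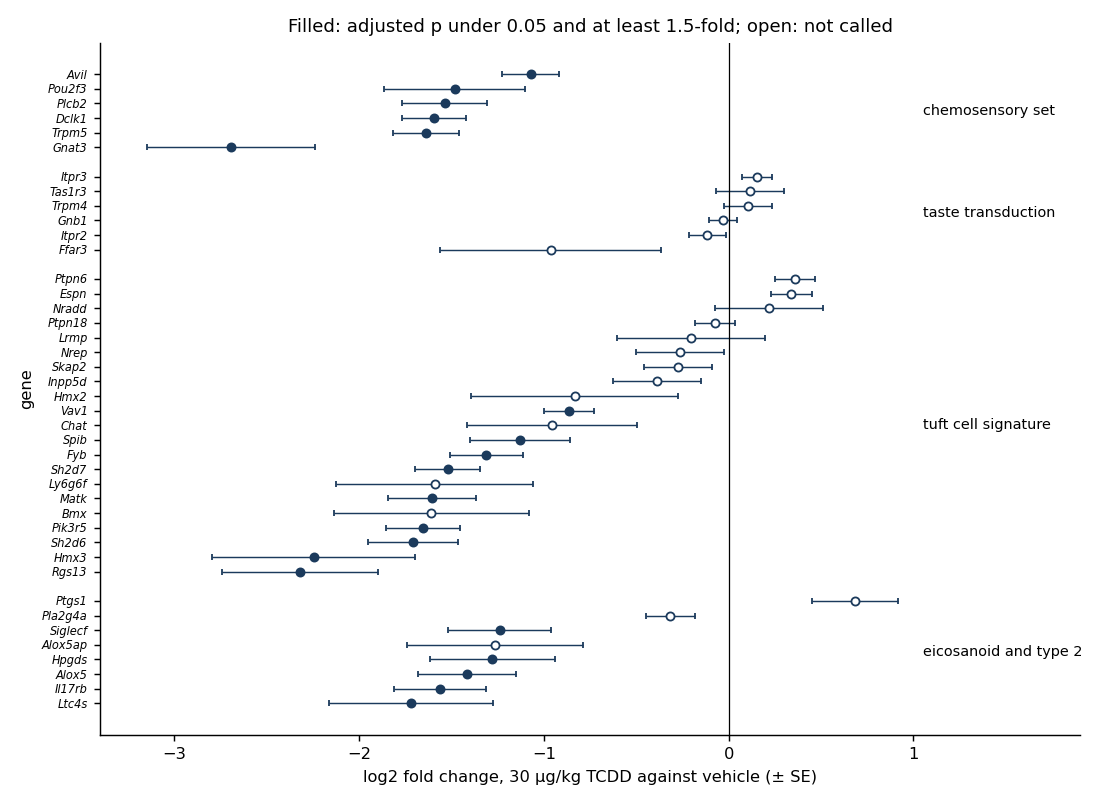
Log2 fold change at 30 μg/kg TCDD against vehicle (x axis, bars are SE) for the 6 tested genes of the set and 3 further lists (y axis, 1 gene per line, with 1 signature gene not shown). Filled points passed the threshold and open points did not. The 6 taste transduction genes sit near 0 apart from Ffar3, while most of the tuft cell signature and eicosanoid genes lie left of it.

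The rest of the taste cascade could be read for few of its genes. The list of other chemosensory transduction genes held 19 genes, of which 13 were too sparse to test. Among these were Tas1r1 and Tas1r2 of the sweet and umami receptors (at most 3 and 2 reads per mouse) and all 7 bitter receptor genes listed, which are of the Tas2r family (at most 5 reads). The 6 tested were Tas1r3, Itpr3, Itpr2, Trpm4, Gnb1 and Ffar3, and edgeR called 0 of them lower at 3, 10 or 30 μg/kg, as did DESeq2 and limma voom. Of all genes tested 0.394%, 0.97% and 3.21% were called lower at these doses, so that 0 of 6 is near the background share. An unadjusted p under 0.05 was reached by 1 of them at each of 3 and 10 μg/kg and by 0 at 30 μg/kg, against 2646, 2936 and 4458 of all 16496 genes at these doses. At 30 μg/kg their median log2 fold change was 0.04. Itpr3, the calcium release channel below Plcb2, had 340 CPM ± 29.4 in vehicle and 378 ± 33.8 at 30 μg/kg (SD, n = 3), and Tas1r3, a taste receptor subunit, 5.19 ± 0.990 and 5.62 ± 0.779. Itpr3 is also used by other epithelial cells. Averaged over all mice, Itpr3, Itpr2, Trpm4 and Gnb1 had 367, 124, 350 and 400 CPM, against 32.4 CPM for Dclk1. What part of their RNA came from tuft cells was not tested, so the median does not describe tuft cells alone. The free fatty acid receptor gene Ffar3 had the lowest estimate (-0.96 ± 0.60).

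Part of the wider tuft cell signature was lower as well. Of the 22 genes listed, all tested, 0, 8 and 10 were called lower at 3, 10 and 30 μg/kg, and 0 were called higher at any of the 3 doses. Of all genes tested 0.394%, 0.97% and 3.21% were called lower at the 3 doses. The list was written with earlier results of these mice known and is no independent evidence of the direction. Rgs13, a regulator of G protein signalling, went from 4.44 CPM ± 1.17 in vehicle to 0.885 ± 0.311 at 30 μg/kg (log2 fold change -2.32 ± 0.42). The homeobox gene Hmx3 went from 1.18 ± 0.398 to 0.239 ± 0.137 CPM (-2.25 ± 0.55), with 1 to 16 reads per mouse over all groups. Its call at 30 μg/kg was lost without vehicle mouse 3, without mouse 66 and when only the groups compared were fitted. The adaptor gene Sh2d6 went from 8.85 ± 1.45 to 2.69 ± 0.538 CPM (-1.71 ± 0.24). Pik3r5, a regulatory subunit of phosphoinositide 3-kinase, went from 14 ± 2.07 to 4.47 ± 0.835 CPM (-1.65 ± 0.20). Sh2d7, Fyb, Matk, Spib and Vav1 were also called, and of these Fyb, Spib and Vav1 are known from leukocytes too. The median log2 fold change of the 22 genes was -0.44, -0.70 and -1.04 at 3, 10 and 30 μg/kg. Not all followed, since Ptpn6, Espn and Nradd had estimates above 0 at 30 μg/kg (0.36 ± 0.11, 0.34 ± 0.11 and 0.22 ± 0.29). With the index set in the model 1 of the 22 and 8 of them were called at 10 and 30 μg/kg, and without mouse 58 there were 5 calls at 10 μg/kg.

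Several genes for tuft cell effector molecules, the lipid mediators and type 2 signals, were also lower. Of 9 genes listed, Il25 had at most 3 reads per mouse and 8 were tested, of which 5 were called lower at 30 μg/kg (Alox5, Ltc4s, Hpgds, Il17rb and Siglecf, named after their values were seen), beside 3.21% of all genes. Il17rb, a subunit of the IL-25 receptor, went from 3.68 CPM ± 0.128 in vehicle to 1.23 ± 0.448 at 30 μg/kg, with a log2 fold change of -1.56 ± 0.25. Alox5, which begins leukotriene synthesis, had -1.42 ± 0.27, and Ltc4s, which makes leukotriene C4, -1.72 ± 0.44. Ptgs1, which begins prostaglandin synthesis, had the opposite sign (0.68 ± 0.23), was not called and ranged from 6.94 to 15.9 CPM among the 3 mice at 30 μg/kg. At 10 μg/kg 1 of the 8 was called, Il17rb, beside 0.97% of all genes, and that call was lost without vehicle mouse 2, 3 or 4 and without mouse 57 or 59. At 30 μg/kg 3 of the 8 were called without mouse 66, and 3 with the index set in the model.

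Other cell types were followed by marker lists in the same libraries. At 30 μg/kg 4458 of the 16496 genes tested had an unadjusted p under 0.05, against which the unadjusted counts of each list are to be read. Of 8 pan-epithelial genes edgeR called 0 at 30 μg/kg (4 at an unadjusted p under 0.05, smallest adjusted p = 0.000156), since the log2 fold changes, from -0.18 to 0.51, stayed under the 1.5-fold limit. Their summed level ran from 9334 to 10146 CPM in vehicle and from 10072 to 12689 CPM at 30 μg/kg, with no gene at 0. Of 7 colonocyte genes and of 7 enteroendocrine genes 0 were called in edgeR (2 and 0 unadjusted), and of 7 goblet cell genes 1 was called higher and 0 lower. Of 4 crypt stem cell genes tested 2 were called lower, beside 3.21% of all genes, and the sum of the 5 listed ran from 78.8 to 89.0 CPM in vehicle and from 41 to 57.9 CPM at 30 μg/kg. Of 6 adipocyte genes 2 were called higher, beside 2.95% of all genes, with sums from 6.99 to 26.2 CPM in vehicle and from 22.7 to 157 CPM at 30 μg/kg. Of 8 smooth muscle genes 0 were called and 7 passed unadjusted, with a median log2 fold change of 2.34 and sums from 72.9 to 123 CPM in vehicle and from 122 to 712 CPM at 30 μg/kg. Of 9 leukocyte genes 0 were called (2 unadjusted), with sums from 68.6 to 83.9 CPM in vehicle and from 53.7 to 152 CPM at 30 μg/kg, and of 3 neuron and glia genes tested 1 was called higher. Of 9 erythroid, platelet and mast cell genes 3 were tested, of which 1 was called higher, 0 lower and all 3 passed unadjusted, with estimates from -3.20 to 1.89 on the log2 scale. The sum of the 9 ran from 3.27 to 5.30 CPM in vehicle and from 3.26 to 4.14 CPM at 30 μg/kg. Cells of the mast cell and eosinophil lineages also express Alox5, Hpgds and Ltc4s. Whether the other genes called lower in the tuft cell lists are limited to tuft cells was not tested. Higher adipocyte and smooth muscle values were not limited to the highest dose. The adipocyte sum ran from 49.1 to 111 CPM at 0.01 μg/kg, above every vehicle-treated mouse, and the median log2 fold change of the smooth muscle genes lay between 0.57 and 1.39 at the 5 low doses. The part of these shifts in the tuft cell values was not tested. The mouse with the most adipocyte and smooth muscle RNA at 30 μg/kg was mouse 67. The summed level of the 6 genes of the set was 28.1 CPM in that mouse and 34.3 and 21.7 CPM in mice 65 and 66. AhR activation was seen in every mouse at 30 μg/kg, where the 4 AhR response genes summed to between 2448 and 2918 CPM, against 26.4 to 34.9 CPM in vehicle.

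Mice of one dose group also differed among themselves, and this variation holds no difference between doses. Deviations of log2 CPM from the group mean were correlated over the 27 mice, which leave 18 degrees of freedom. Of the 15 pairs of tested genes 10 correlations were above 0, with a median Pearson r of 0.348. Within the first index set the median was 0.195 and within the second 0.462. Mouse 41, alone at 1 μg/kg in the first set, has no deviation from a group mean there, which leaves 15 of its 16 mice. Trpm5 and Dclk1 had the highest (r = 0.71, permutation p = 0.00736, adjusted p = 0.110 over all 45 pairs of the set, with a Spearman rho of 0.708, permutation p = 0.0018, adjusted p = 0.0405). Leaving out the 2 mice with the most extreme Trpm5 deviations gave 0.637, and within the first and second index set it was 0.786 (15 mice) and 0.623 (11 mice). By Pearson's r 0 of the 45 pairs passed the adjustment and 6 had an unadjusted p under 0.05. Pou2f3 correlated with the other 5 tested genes between -0.228 and -0.0472, 0 of these 5 with an unadjusted p under 0.05. The sign was not the same in every subset of mice. With 2 mice left out of each pair, r was above 0 for 4 of the 5 (0.0155 to 0.114) and below for Plcb2 (-0.362). These were the 2 mice farthest in the partner gene, or in Pou2f3 for the pair with Avil, so they can differ between pairs. Within the first index set r was likewise above 0 for 4 of the 5 (0.186 to 0.335, and -0.434 for Plcb2). Within the second index set all 5 were below 0 (-0.588 to -0.184). Its correlation with Gnb3 was the lowest of all (r = -0.669, permutation p = 0.00134, adjusted p = 0.0603, with a Spearman rho of -0.626, adjusted p = 0.0405), but Gnb3 had only 7 reads in all libraries. Mouse 43 at 1 μg/kg was the highest of the 27 in the mean deviation of the 6 genes and mouse 66 at 30 μg/kg the lowest. Among the mice at 30 μg/kg mouse 65 was highest in Trpm5, Dclk1, Avil, Plcb2 and Gnat3 and lowest in Pou2f3.

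The genes outside the tuft cell lists whose deviations were most like the mean standardized deviation of the 6 genes were, by Pearson's r over 27 mice, mt-Nd2 (0.859), Tinag (0.811), mt-Nd4 (0.806), mt-Nd5 (0.802), mt-Ti (0.801), mt-Cytb (0.793), mt-Rnr2 (0.779), Fam136a (0.771), Zfp874a (0.763) and 3830406C13Rik (0.758). Of these 10, 6 are encoded by the mitochondrial genome. The points share library and depth, and the middle 90% of all genes tested lay between -0.44 and 0.44. The share of gene counts on the 37 mitochondrial genes ran from 4.1 to 4.5% in vehicle and from 3.58 to 4.52% at 30 μg/kg, and these groups overlapped. It also overlapped vehicle at 0.01 and 0.3 μg/kg, while all mice at 0.03, 0.1, 1, 3 and 10 μg/kg (3.19 to 4.03%) were below every vehicle-treated mouse. At 30 μg/kg mouse 65 had the highest share (4.52%) and mouse 66 the lowest (3.58%), the same order as for the mean of the 6 genes. Its part in the correlations was not tested.

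**Figure D4:**
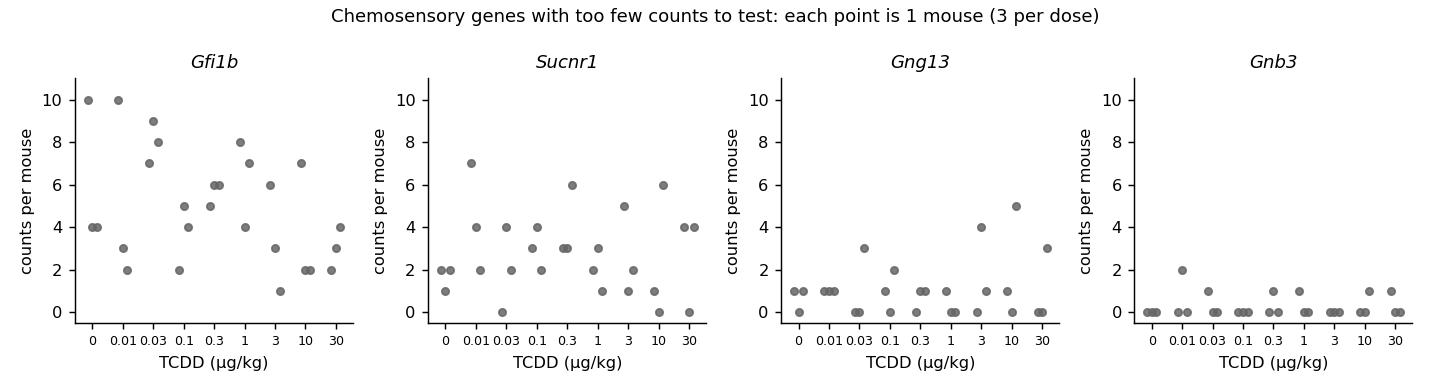
Reads per mouse (y axis) of Gfi1b, Sucnr1, Gng13 and Gnb3 against TCDD dose (μg/kg, 0 is vehicle). Each point is 1 mouse. Gfi1b has 4 to 10 reads per mouse in vehicle and 2 to 4 reads at 30 μg/kg, and Gnb3 stays at 2 reads or fewer at every dose.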

How the data were processed

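RNA from colonic epithelium scrapings of 27 male mice was sequenced by the authors, who deposited whole-number counts per gene for each mouse, not normalized. The submitters' processing notes name FastQC 0.11.3, Trimmomatic 0.33, TopHat2 2.1.0, SAMtools 1.2.0, HTSeq 0.6.1, DESeq and the GRCm38 build. Use of strand and the annotation release are not given in the sources used here. Lines that name no gene (29.1 to 33.3% of reads without a feature, 30.7 to 37.1% not unique) were left out, which can lower the counts of genes that have close copies.

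Genes were filtered with filterByExpr (edgeR 4.0.16 in R 4.3.3, minimum count 10), which kept 16496, and scaled by TMM. All 9 groups entered 1 quasi-likelihood fit (glmQLFit, glmQLFTest), and p-values were adjusted by Benjamini-Hochberg over all genes tested. Slopes over dose rank needed an adjusted p under 0.05 alone. SEs were taken as the absolute log2 fold change over the square root of F. Correlations used log2 CPM with a prior count of 2, group means removed and 100000 shuffles within groups. DESeq2 1.42.0, limma voom (limma 3.58.1), RLE factors, no filter, library sizes from pan-epithelial counts, a Hox score (first component of 25 Hox genes), an index set term and each mouse left out were the alternatives. The fits across genes were tested on simulated data. Replicates of a group differed by more than counting noise (in 27 pairs the lowest chi-square per degree of freedom was 5.84).

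The set, the gene lists and the tests were chosen with earlier results of these data known. The eicosanoid list's alternatives and the median over tested pairs were added after the data were seen. Named genes were the 10 of the set, up to 4 called genes with the largest fall at 30 μg/kg from each of the chemosensory and signature lists, and the 10 outside genes with at least 1 CPM most like the set. All other genes named were chosen after their values were seen. Values of 1 gene of the signature list are not reported here.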

Additional observations from a re-analysis of the deposited data

How the results depend on the processing

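The number of genes of the set called at 3, 30 and 0.01 to 1 μg/kg, in both slopes and at 1 against 0.3 μg/kg stayed within 1.5 times the value reported under every alternative run. Leaving out each mouse gave 0 calls at 3 μg/kg, 3 at 10 μg/kg, 5 to 6 at 30 μg/kg and 0 in the low-dose comparisons. At 10 μg/kg DESeq2 and the fit with the Hox score each called 4 genes of the set, with Gnat3 gained. With pan-epithelial counts as library sizes the median log2 fold change of all genes was -0.19, -0.25 and -0.23 at 3, 10 and 30 μg/kg. At 30 μg/kg 1409 genes were called lower and 263 higher (530 and 486 in the fit reported). Of the set 6 genes were called at 10 μg/kg instead of 3, with 2 eicosanoid genes at that dose and 1 signature gene at 3 μg/kg. The shares of all genes called at 3 and 10 μg/kg were not counted under the alternatives, so nothing is read from these counts. Adding the index set to the model, an estimate that only the 3 mice at 1 μg/kg inform, left 1 signature gene called at 10 μg/kg, and 0 and 3 eicosanoid genes at 10 and 30 μg/kg. The eicosanoid list had 0 calls at 10 μg/kg with no filter and with only the groups compared. Leaving out mice gave 5 to 8 signature genes at 10 μg/kg, 8 to 11 at 30 μg/kg, 0 to 1 eicosanoid genes at 10 μg/kg, 3 to 5 at 30 μg/kg and 0 chemosensory genes at any of the 3 doses. The median r over all 45 pairs was 0.114 (0.0476 to 0.164 with a mouse left out) and turned to -0.0935 in the first index set alone, and that over the 15 tested pairs (0.348) ran from 0.238 to 0.404 with a mouse left out and was 0.195 and 0.462 in the first and second index set. The causes of these changes were not tested. No paired analysis was possible because mouse numbers are unique and link no mice across doses. With 3 mice per group, counts of 10 reads or fewer limit what can be said of 4 of the 10 genes.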
